A study of Mus musculus with 4 samples.

Results

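The transcripts of 10 genes of glucose uptake, glycolysis and their regulation were followed in mouse bone marrow neutrophils: the glucose transporter genes Slc2a1 and Slc2a3, the hexokinase genes Hk1, Hk2 and Hk3, the phosphofructokinase gene Pfkl, its regulator Pfkfb3, the enzyme genes Pgk1 and Ldha, and the transcription factor gene Hif1a. They were represented by 25 probe sets, each a group of short probes with a common target, out of 34945 probe sets for 18193 genes; every probe set annotated with the symbol of a member was taken. Neutrophils came from 8-week-old C57BL/6 mice that were wild type (miR-125a+/+) or knockout (miR-125a-/-) for the microRNA miR-125a. They were purified with a magnetic bead kit, cultured in medium with serum, and left unstimulated or given lipopolysaccharide (LPS, a bacterial outer membrane molecule detected through Toll-like receptor 4) for 3 h. For each of the 4 groups, RNA of 3 experiments was pooled on 1 Affymetrix array. With a single array in each group, none of the differences could be checked against replicates and none was tested; precision is limited by this number of arrays. The labels name no promoter or Cre driver for the deletion. The sources used here do not state whether the unstimulated cells also spent 3 h in culture, so LPS and time in culture cannot be told apart.

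Neutrophils hold few mitochondria and obtain most of their ATP by glycolysis. Glucose enters through facilitative transporters of the Slc2a family, is trapped as glucose 6-phosphate by hexokinases and committed to glycolysis by phosphofructokinase, and the pyruvate formed is largely reduced to lactate and exported. Hypoxia-inducible factor 1 (HIF-1), whose regulated subunit is encoded by Hif1a, is a known activator of many genes of this route, and LPS is known to raise glycolysis in myeloid cells.

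The deleted microRNA is shown because it defines the genotypes; its own level was not measured by these arrays. The capitals mark the seed, bases 2 to 8, in the mature sequence from RefSeq (GRCm38.p6, chr17:17830817-17830840, plus strand).
miR-125a-5p: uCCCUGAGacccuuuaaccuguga

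All values are log2 signals from the MAS5 algorithm, which scores each probe set on each array separately. A signal under log2 6.80, the 60th percentile of all values, was treated as lying at this floor, so where 1 of the compared signals lies there the difference is given as a minimum. The brightest probe set by mean signal stood for its gene, and a difference was called from 2-fold, or 1 on the log2 scale. All 10 genes lay above the floor on all 4 arrays in that probe set. Of the 25 probe sets, 19 did so, 4 were above it on some arrays, and 2, of Pfkfb3 (1456676_a_at) and Hif1a (1431981_at), were above it on none.

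The preparation was checked against marker genes. Of 12 neutrophil markers 10 could be matched, and all 10 were above the floor on every array, among them S100a8, S100a9, Ltf, Ngp and Camp, with a summed signal from 265228 to 328820. After LPS 8 of the 10 were higher as deposited in each genotype and 2 lower. Cxcr2 was 1.54-fold and 2.15-fold lower in wild-type and knockout cells, and Mmp8 1.52-fold and 1.73-fold lower. Of 7 matched monocyte and macrophage markers 5 or 6 were above the floor, and their summed signal was 23267.2 and 23355.5 on the unstimulated wild-type and knockout arrays against 45432.2 and 42811.6 after LPS. Its members did not move together: Adgre1 was 30.7-fold and 35.7-fold higher and Csf1r 6.24-fold and 5.15-fold higher after LPS in wild-type and knockout cells, but Ccr2 was 14.7-fold and 11.6-fold lower and F13a1 3.81-fold and 3.45-fold lower. Erythroid markers summed to 2195.5 and 3731.63 unstimulated and to 1137.72 and 1097.75 after LPS, with 1 to 4 of 6 above the floor and Hba-a1 and Alas2 under it on every array. The eosinophil, basophil and mast cell markers summed to 4205.84 and 3576.24 on the wild-type arrays and to 1903.65 and 1545.62 on the knockout arrays, with 2 to 5 of 7 above the floor. The T and NK cell markers had 1 of 4 above the floor on every array, Cd3e, Cd3g and Ncr1 being under it. Of 5 matched B cell and plasma cell markers Cd79a and Ms4a1 were under it, while Jchain had 14.35, 14.67, 13.98 and 14.42 in unstimulated wild-type, unstimulated knockout, LPS wild-type and LPS knockout cells and Xbp1 and Cd79b were above it on every array; their summed signal was 36590.4 to 45738.1. None of these markers was listed at 0. The part of these other cells in the differences below was not tested, and fewer cells of a type and less RNA per cell cannot be told apart in pooled RNA.

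The first question was how LPS changed transcripts of glucose use in each genotype. None of the 10 genes reached 2-fold in either genotype, where 17.0% of 9507 measured genes in wild-type cells and 14.6% of 9578 in knockout cells did so. The median difference of the 10 genes was -0.13 in wild-type and -0.16 in knockout cells, against -0.03 and -0.05 over all measured genes; with quantile normalization the wild-type median was -0.34, against 0.07 over all genes. From 1.5-fold, 1 member was higher (Hk2) and 1 lower (Slc2a3) in wild-type cells, where 15.8% and 21.0% of genes were, and 0 was higher and 1 lower (Slc2a3) in knockout cells, where 13.8% and 19.2% were. The 5 members Slc2a1, Slc2a3, Hk1, Hk3 and Ldha were lower after LPS in both genotypes and Hk2 and Pgk1 were higher in both, while Pfkl, Pfkfb3 and Hif1a had opposite signs; on the poly-A spike-in scale described next all members but Hk2 in wild-type cells were lower, and Ldha in wild-type and Pgk1 in knockout cells also changed sign under median scaling and quantile normalization, respectively. In knockout cells Pfkl was 0.03 under quantile normalization, and Pfkfb3 was 0.02 under it and 0.03 under median scaling, so their signs were then no longer opposite. Over all genes measured in both genotypes, 44.3% were lower in both, 38.3% higher in both and 17.4% of opposite sign. The wild-type and knockout comparisons share no array.

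**Figure D1:**
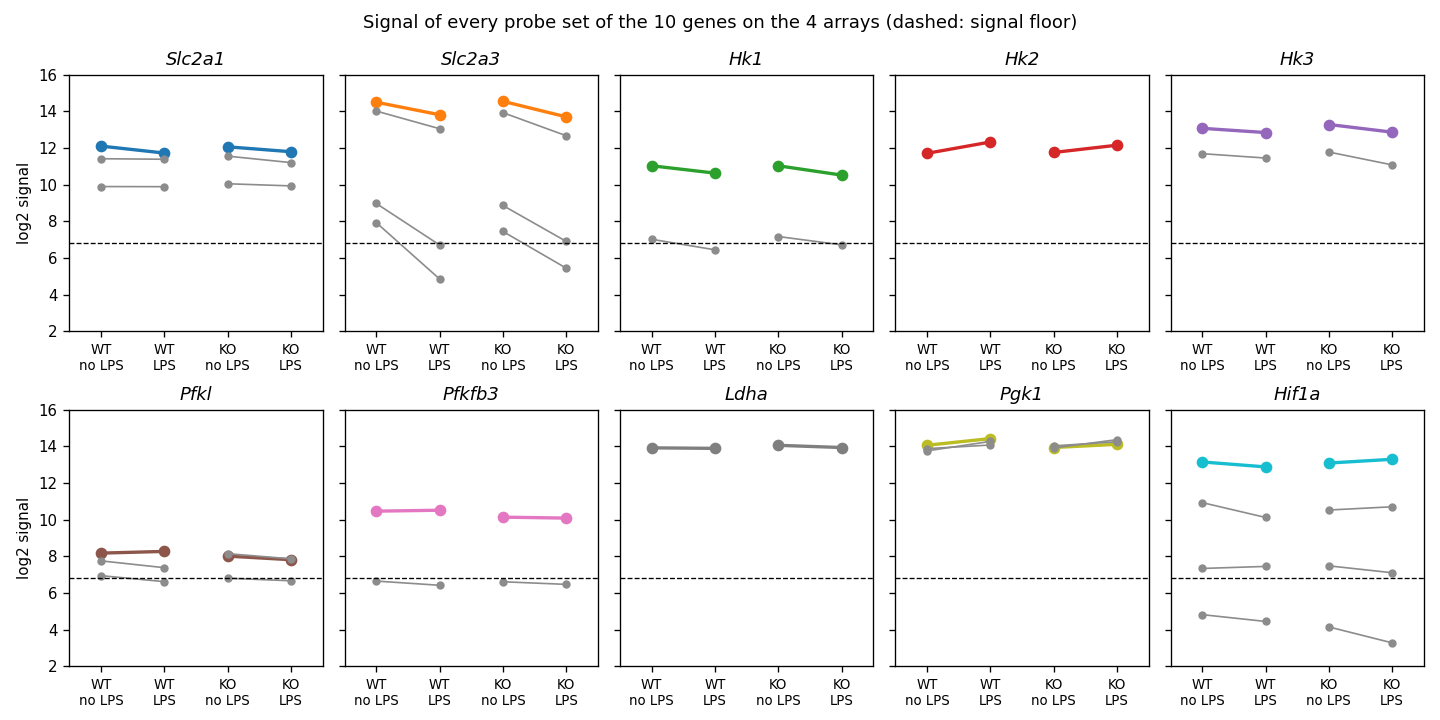
Log2 signal (vertical axis) of every probe set of the 10 genes on the 4 arrays, wild type (WT) and knockout (KO), without and with LPS for 3 h; large points are the probe set that represents the gene, small grey points its other probe sets, lines join arrays of a genotype, and the dashed line is the floor of 6.80. Slc2a3 slopes down in all 4 of its probe sets, and Hk2 slopes up by 0.62 in wild-type and 0.40 in knockout cells, the latter turning negative on the poly-A spike-in scale.

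Directions depended on how the arrays were scaled. The poly-A spike-ins are bacterial transcripts meant to be added to the RNA in fixed amount, and the amount was not checked here. They gave signals 0.56 higher on the LPS array than on the unstimulated array in wild-type and 0.61 higher in knockout cells. Scaling the arrays on them shifted the median LPS difference over all genes by -0.51 and -0.56, so an increase under about that size becomes a decrease on this scale. Quantile normalization moved the median of all genes by 0.10 and 0.06, and median scaling by 0.06 and 0.08.

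Among the transporters, Slc2a3 had lower signals after LPS, by an amount that depended on the probe set. Slc2a3 encodes the high-affinity neuronal-type glucose transporter GLUT3. Its brightest probe set (1437052_s_at) had 14.50 in unstimulated wild-type, 14.55 in unstimulated knockout, 13.82 in LPS wild-type and 13.70 in LPS knockout cells, so that both LPS arrays lay under both unstimulated arrays. The signal was 1.60-fold lower after LPS in wild-type and 1.80-fold lower in knockout cells; 17.6% and 10.9% of all measured genes were lower by at least as much. Its next probe set (1455898_x_at) read 14.02, 13.93, 13.06 and 12.68 in the same order of groups, which is 1.95-fold and 2.39-fold lower.

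Further probe sets of Slc2a3 were dimmer, and their signals reached or neared the floor after LPS. Probe set 1421924_at had 8.98 and 8.87 on the unstimulated wild-type and knockout arrays and 6.71 and 6.91 after LPS. With the wild-type LPS signal under the floor, it was at least 4.54-fold lower in wild-type cells, and it was 3.88-fold lower in knockout cells. Probe set 1427770_a_at had 7.93 and 7.45 unstimulated and 4.86 and 5.45 after LPS, both under the floor, so it was at least 2.20-fold and at least 1.58-fold lower, the former under 2-fold (-0.98) with quantile normalization. All 4 probe sets were thus lower after LPS in both genotypes under each of the 3 other scalings, but their sizes disagree, and 2 of the 4 passed 2-fold in each genotype (1421924_at and 1427770_a_at in wild-type, 1421924_at and 1455898_x_at in knockout cells). These were the only member probe sets called, 2 of 23 lower and 0 higher in each genotype, where 11.7% and 8.83% of all measured probe sets were lower by 2-fold and 6.68% and 6.17% higher. With the probe sets whose name ends in _s_at or _x_at (probes that can match other transcripts) left out, Slc2a3 as a gene passed 2-fold with -2.18 and -1.96, and in the mean over its probe sets with -1.75 and -1.52. That mean was taken before the floor was set, so it includes signals under the floor, such as 4.86 and 5.45 for 1427770_a_at after LPS.

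Slc2a1 encodes GLUT1, the widely expressed basal glucose transporter. Its brightest probe set (1434773_a_at) had 12.11 in unstimulated wild-type, 12.07 in unstimulated knockout, 11.73 in LPS wild-type and 11.80 in LPS knockout cells. Both LPS arrays were lower, by 1.30-fold and 1.20-fold. The other probe sets had differences of -0.03 and -0.01 in wild-type and -0.35 and -0.12 in knockout cells, and those of wild-type cells turned positive under median scaling (both) or quantile normalization (1426600_at).

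The 3 hexokinases, which phosphorylate glucose in the first step of glycolysis, did not share a direction. Hk2, the inducible isoform that binds mitochondria, had 11.71 in unstimulated wild-type, 11.76 in unstimulated knockout, 12.33 in LPS wild-type and 12.16 in LPS knockout cells. Both LPS arrays lay above both unstimulated arrays, by 1.53-fold in wild-type and 1.32-fold in knockout cells, and 14.5% and 21.2% of all measured genes were higher by at least as much. The difference was 0.05 in wild-type and reversed to -0.21 in knockout cells on the poly-A scale. Hk2 was the only member higher by at least 1.5-fold, in wild-type cells alone; whether the genotypes differ in this was not tested.

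Hk1, the constitutive isoform, had 11.04 on both unstimulated arrays, 10.64 in LPS wild-type and 10.53 in LPS knockout cells in probe set 1437974_a_at, 1.32-fold and 1.42-fold lower. Its dimmer probe set had 7.03 and 7.18 unstimulated and was under the floor on both LPS arrays. Hk3, the isoform typical of myeloid cells, had 13.08 and 13.29 on the unstimulated wild-type and knockout arrays and 12.85 and 12.87 after LPS in probe set 1442798_x_at. Its second probe set (1435490_at) read 11.70, 11.79, 11.46 and 11.08 in the order unstimulated wild-type, unstimulated knockout, LPS wild-type and LPS knockout, and was lower by 0.24 in wild-type and 0.70 in knockout cells on the log2 scale. Hk1 and Hk3 were thus lower after LPS in every probe set and under every scaling tried, and Hk2 was not.

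Pfkl and Pfkfb3 act at the committed step. Pfkl is the liver-type subunit of phosphofructokinase, and Pfkfb3 makes fructose 2,6-bisphosphate, the strongest allosteric activator of that enzyme. Pfkp, another phosphofructokinase gene and not a member, had 11.33 and 11.18 on the unstimulated wild-type and knockout arrays and 10.85 and 10.88 after LPS. These signals were brighter than those of any Pfkl probe set. Pfkl had 8.17 in unstimulated wild-type, 8.01 in unstimulated knockout, 8.26 in LPS wild-type and 7.81 in LPS knockout cells (1450269_a_at), and a second probe set (1439148_a_at) had 7.75, 8.14, 7.37 and 7.86. These probe sets disagree in the sign of the LPS difference in wild-type cells, 0.09 against -0.37, and the 0.09 becomes -0.47 on the poly-A scale. Pfkfb3 had 10.46, 10.13, 10.51 and 10.08 in the same order, and its LPS differences, 0.05 and -0.05, change sign with the scaling.

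The later enzymes were bright, and none of their probe sets differed by 1.5-fold after LPS. Pgk1 encodes phosphoglycerate kinase, the first ATP-yielding enzyme of glycolysis. Its probe sets were higher after LPS by 0.36, 0.52 and 0.20 in wild-type and by 0.17, 0.45 and 0.22 in knockout cells on the log2 scale; all 6 differences were below 0 on the poly-A scale, and under quantile normalization those of 1439435_x_at alone stayed above 0 in both genotypes. The brightest of them, 1438640_x_at, read 14.05 in unstimulated wild-type, 13.93 in unstimulated knockout, 14.42 in LPS wild-type and 14.11 in LPS knockout cells. Ldha encodes the lactate dehydrogenase subunit that favours reduction of pyruvate to lactate. It had 13.91, 14.05, 13.89 and 13.93 in that order, a difference of -0.03 in wild-type (0.03 under median scaling) and -0.12 in knockout cells.

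Hif1a gave opposite signs in the genotypes. Probe set 1427418_a_at had 13.14 in unstimulated wild-type, 13.08 in unstimulated knockout, 12.87 in LPS wild-type and 13.29 in LPS knockout cells, so the LPS wild-type array was lowest and the LPS knockout array highest. Probe set 1416035_at had 10.93, 10.52, 10.12 and 10.70, with the LPS wild-type array again lowest but the unstimulated wild-type array highest. LPS differences were -0.27 and -0.81 in wild-type and 0.20 and 0.18 in knockout cells, the latter pair turning to -0.41 and -0.43 on the poly-A scale. Another probe set, 1448183_a_at, ran the other way with 0.11 in wild-type and -0.38 in knockout cells, from signals between 7.10 and 7.48. The knockout minus wild-type difference of these responses, 0.47, 0.99 and -0.49, thus depends on the probe set, and none reached 2-fold, although 1416035_at passed it under median scaling.

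**Figure D2:**
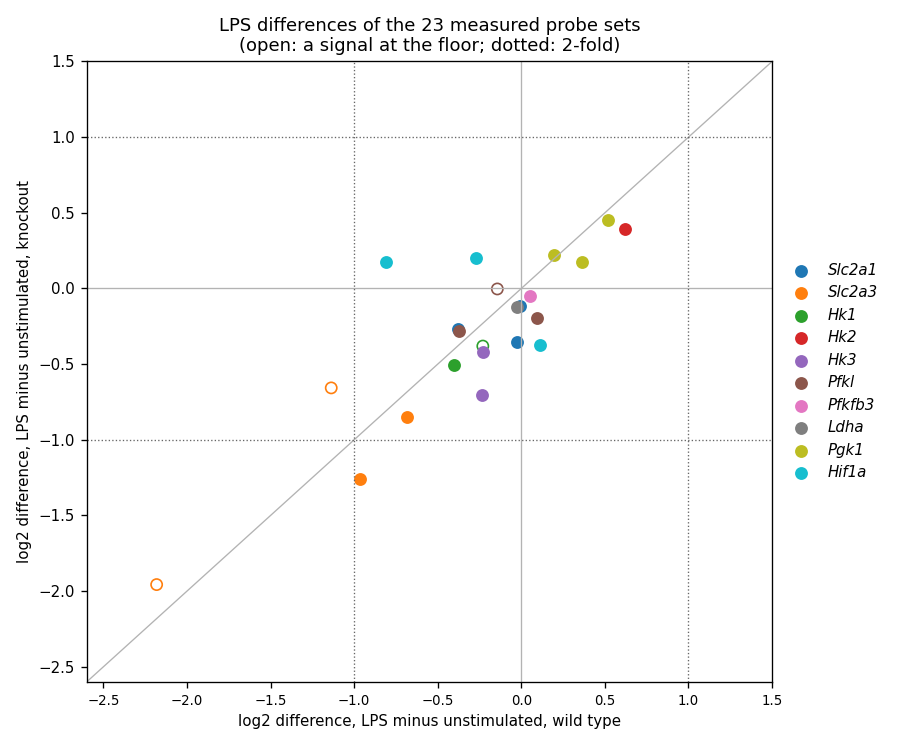
Log2 difference, LPS minus unstimulated, in wild-type (horizontal axis) and knockout cells (vertical axis) for the 23 measured probe sets of the 10 genes; open points have a signal at the floor in at least 1 genotype, dotted lines mark 2-fold and the diagonal marks equal differences. The 2 lowest points on each axis are Slc2a3 probe sets, Pgk1 and Hk2 lie above 0 on both axes as deposited but not on the poly-A scale (Hk2 in wild-type cells excepted), and 2 Hif1a probe sets lie at upper left.

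Promoter sequences are shown because Hk2, Pgk1 and Ldha are textbook HIF-1 targets. As deposited, Hk2 and Pgk1 were higher after LPS in both genotypes, while Ldha differed little (-0.03 in wild-type, -0.12 in knockout cells). Whether the signs of these genes differed depended on the scaling. The sequences are the 250 bases before the annotated gene start in RefSeq (GRCm38.p6), from 9 of the 10 members; Slc2a3 had no entry. Capitals mark the core letters of the HIF-1 response element, ACGTG or GCGTG on either strand, of which ACGTG is also part of the E-box CACGTG. The regions are chr6:82774455-82774704 (minus strand) for Hk2, chrX:106186850-106187099 (plus strand) for Pgk1 and chr7:46845554-46845803 (plus strand) for Ldha.
Hk2: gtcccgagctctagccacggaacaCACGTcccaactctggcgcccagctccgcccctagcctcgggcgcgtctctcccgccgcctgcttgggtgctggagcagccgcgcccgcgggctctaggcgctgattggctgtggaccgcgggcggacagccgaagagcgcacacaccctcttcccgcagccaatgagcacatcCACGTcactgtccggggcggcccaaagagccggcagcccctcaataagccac
Pgk1: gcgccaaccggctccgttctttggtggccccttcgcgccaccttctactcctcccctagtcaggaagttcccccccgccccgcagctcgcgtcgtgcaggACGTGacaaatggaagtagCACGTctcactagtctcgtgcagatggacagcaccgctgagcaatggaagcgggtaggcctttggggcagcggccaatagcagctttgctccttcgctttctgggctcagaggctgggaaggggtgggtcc
Ldha: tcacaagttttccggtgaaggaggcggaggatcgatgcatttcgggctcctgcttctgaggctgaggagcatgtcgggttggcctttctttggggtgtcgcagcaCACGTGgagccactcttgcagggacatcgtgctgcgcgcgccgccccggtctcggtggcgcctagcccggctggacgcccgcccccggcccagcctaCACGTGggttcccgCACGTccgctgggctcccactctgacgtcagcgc
Hk2 and Pgk1 held 2 such matches each and this start of Ldha held 5, of which 4 lie in 2 copies of CACGTG, where both strands match. A match was found in 11 of 12 windows of the 9 members, the exception being 1 of the starts of Hk1, and in 38.6% of the 32851 windows of that length in the table. Among the other members Slc2a1 held 2, Hk3 and Pfkl 1 each, the Hk1 windows 0 and 3, and the Pfkfb3 windows 1 and 3. Slc2a1, Hk1 and Hk3 were lower after LPS in both genotypes. The Hif1a window itself held 3. A match is a description of the letters and not of binding.

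Other genes of glucose metabolism were counted from lists of 93 symbols, of which 82 were matched and 62 exceeded the floor on at least 1 array. Of 61 measured in wild-type cells 3 were higher by 2-fold after LPS (7.29% of all genes were) and 2 lower (9.69% of all genes); of 59 measured in knockout cells 3 were higher (6.62%) and 4 lower (7.99%). Their medians were -0.04 and -0.07, beside -0.03 and -0.05 over all genes.

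The transporter that changed most was not a member. Slc2a6, which encodes the lysosomal family member GLUT6, had 8.40 in unstimulated wild-type, 8.81 in unstimulated knockout, 11.91 in LPS wild-type and 11.83 in LPS knockout cells. It was 11.4-fold higher in wild-type and 8.10-fold higher in knockout cells, and 0.410% and 0.574% of all measured genes rose by at least as much. The differences were 2.94 and 2.41 on the poly-A scale. Of the other 8 listed Slc2a genes, Slc2a9 exceeded the floor on 1 array (6.85 in unstimulated wild-type cells) and 7 on none.

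A monocarboxylate transporter and a brake on pyruvate oxidation were lower after LPS. Slc16a1 encodes MCT1, a carrier of lactate and pyruvate. The brighter of its 2 probe sets had 11.47 and 11.58 on the unstimulated wild-type and knockout arrays and 9.19 and 9.09 after LPS. That is 4.85-fold and 5.61-fold lower, and the other probe set is not described here. Slc16a3, the lactate exporter MCT4, stayed between 7.66 and 7.86 on all 4 arrays. Pdk1, a kinase that inhibits pyruvate dehydrogenase, had 8.48 and 8.24 unstimulated and 6.97 and 7.11 after LPS, 2.86-fold and 2.18-fold lower; under quantile normalization the knockout value was -0.92, short of 2-fold. Its second probe set had 7.39 and 7.43 unstimulated and was under the floor after LPS. The other 12 measured genes of this list were not called; the pyruvate dehydrogenase subunit Pdha1 was lowest among them in both genotypes (-0.71 and -0.77).

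None of 10 other glycolytic enzymes was called in either genotype (medians -0.20 and -0.26), where 17.0% of all genes in wild-type and 14.6% in knockout cells were. Aldoa, the aldolase of muscle and most cells, came nearest on the high side with 13.41 and 13.60 unstimulated and 14.32 and 14.26 after LPS, 1.89-fold and 1.58-fold higher. Its other 4 probe sets had differences from 0.28 to 1.03 in wild-type and from 0.46 to 0.64 in knockout cells, some of which turned negative on the poly-A scale. Bpgm, the bisphosphoglycerate mutase abundant in red cells, was at least 1.94-fold and at least 1.80-fold lower, from 7.75 and 7.65; the summed erythroid markers given above were also lower after LPS in both genotypes, and their part in this was not tested. Gapdh was represented by control probe sets alone, which differed by 0.19 to 0.24 in wild-type and 0.09 to 0.17 in knockout cells.

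Pfkfb4, a second kinase for fructose 2,6-bisphosphate, was lower by 0.47 in wild-type and 0.71 in knockout cells, and Tigar, which degrades that activator, was higher by 0.30 in both (below 0 on the poly-A scale). Among HIF partners and regulators 0 of 6 was called in either genotype, where 17.0% of all genes in wild-type and 14.6% in knockout cells were. Egln2, an oxygen-sensing prolyl hydroxylase that marks HIF subunits for degradation, had 0.90 and 0.86. Hif1an, a hydroxylase that inhibits HIF, had 0.65 and 0.29 (the latter below 0 on the poly-A scale), and Arnt, the partner of Hif1a, had -0.21 and -0.63. Of 8 other known HIF target genes 2 were higher by 2-fold in both genotypes. Of all measured genes, 7.29% in wild-type and 6.62% in knockout cells were higher by 2-fold, each genotype taken alone. Ddit4, an inhibitor of mTORC1, was 3.41-fold and 2.87-fold higher, and Mxi1, a MYC antagonist, 2.47-fold and 2.11-fold. On the poly-A scale Ddit4 had 1.20 and 0.91 and Mxi1 0.74 and 0.47, so 3 of these 4 calls ended. Vegfa, the angiogenic factor, was not among the called genes (-0.37 and -0.23).

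Txnip and its relative Arrdc4, which promote removal of glucose transporters from the cell surface, had lower signals after LPS. Txnip had 14.06 and 14.31 on the unstimulated wild-type and knockout arrays and 13.28 and 13.20 after LPS, 1.73-fold and 2.16-fold lower. Arrdc4 had 10.16 and 10.60 unstimulated and 9.54 and 9.41 after LPS, 1.53-fold and 2.28-fold lower. The knockout calls are the 2 lower genes that knockout cells had beyond Slc16a1 and Pdk1; the Txnip call was gained in wild-type cells under quantile normalization (-1.04) and lost in knockout cells in the mean over probe sets (-0.94). Whether the genotypes differ in these genes was not tested.

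**Figure D3:**
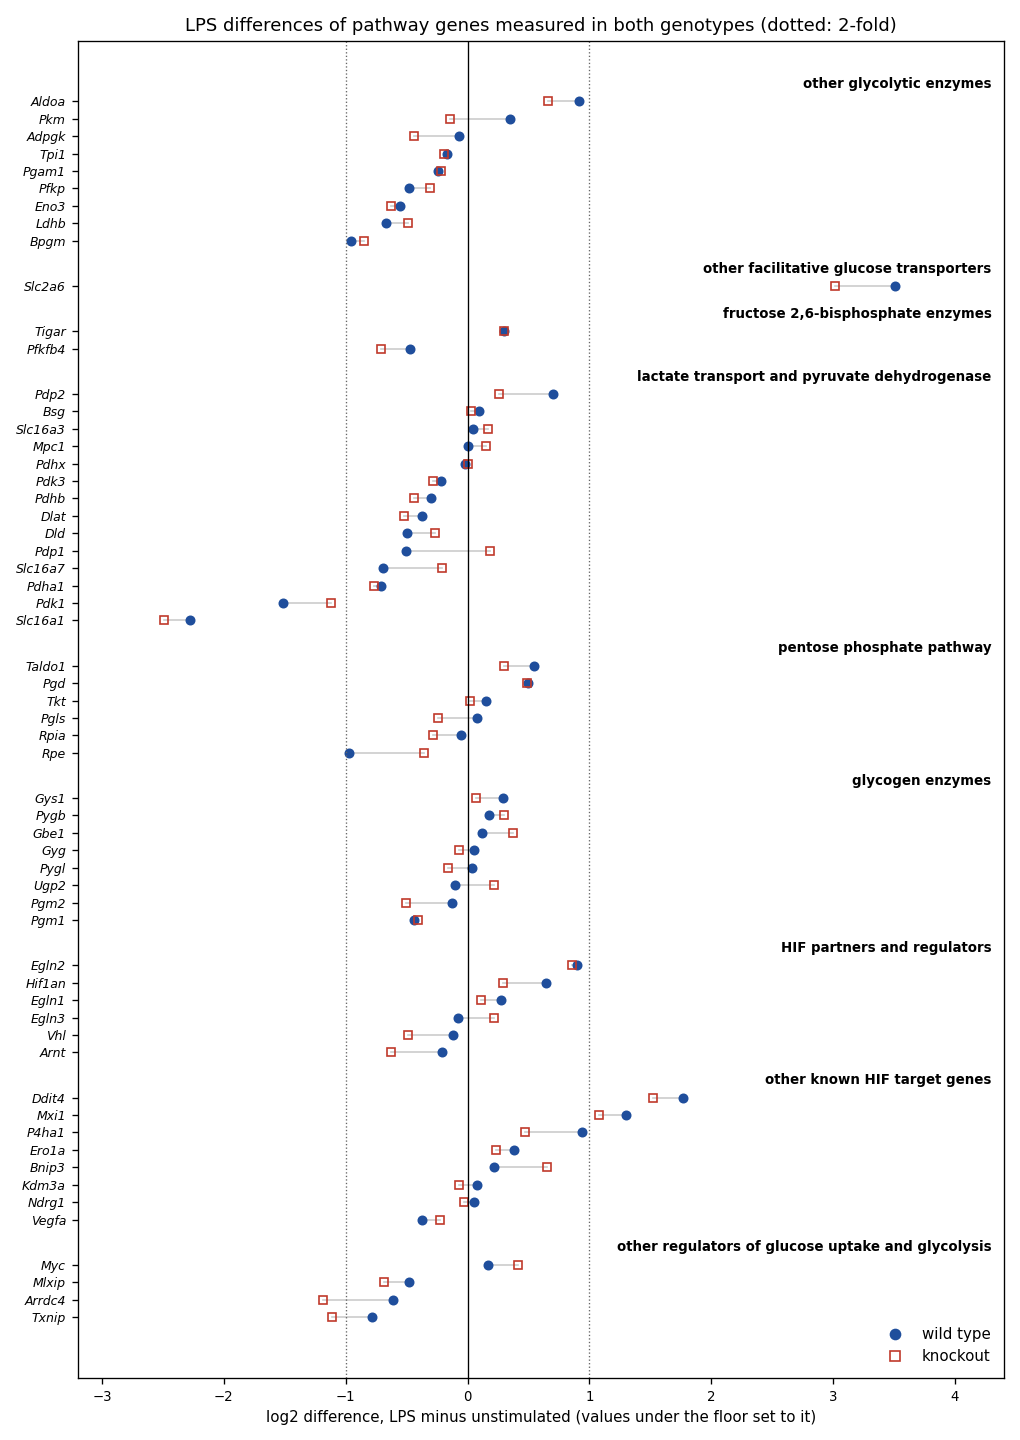
Log2 difference, LPS minus unstimulated (horizontal axis), of the listed pathway genes measured in both genotypes, filled circles for wild-type and open squares for knockout cells, grouped by list, with dotted lines at 2-fold; signals under the floor were set to it. Slc2a6 stands apart at 3.51 and 3.02 and Slc16a1 at -2.28 and -2.49, while most enzymes lie within 1 of 0.

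The second question was what loss of miR-125a changed. None of the 10 genes differed 2-fold between genotypes, at either time, where 1.01% of 9401 measured genes did so unstimulated and 1.24% of 9262 after LPS. None reached 1.5-fold either, against 5.83% and 7.64% of genes. Of their probe sets 0 of 23 measured unstimulated and 0 of 20 after LPS differed 2-fold, where 1.21% and 1.26% of all probe sets did. The median difference, knockout minus wild type, was -0.02 unstimulated and -0.11 after LPS, beside 0.00 and -0.01 over all measured genes. For scale, 90% of the genes above the floor on all 4 arrays lay within 0.45 between genotypes unstimulated and within 0.50 after LPS, a spread that holds array scatter and genotype together. These comparisons share their arrays with the LPS comparisons above.

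Pfkfb3 had the lowest unstimulated difference of the 10 genes and was lower in knockout cells on both occasions, by 0.33 unstimulated and 0.43 after LPS, and 10.7% and 7.37% of genes were lower by at least as much. Pfkl was lower by 0.16 and 0.45 in its brightest probe set but higher by 0.39 and 0.48 in the next, so these probe sets oppose each other. Its dimmest probe set (1453541_at) was lower by 0.14 unstimulated, from 6.94 to 6.80, near the floor. Both of its LPS signals were under the floor. Hif1a was higher by 0.41 in knockout cells after LPS in its brightest probe set and by 0.58 in the next, and lower by 0.34 in 1448183_a_at; 9.46% of genes were higher by at least as much as the first. Pgk1 was lower by 0.31 after LPS in its brightest probe set and higher by 0.09 and 0.17 in the others. Slc2a3 had 0.05 unstimulated in its brightest probe set and -0.48 in 1427770_a_at. After LPS it had -0.12 in the brightest, -0.38 in 1455898_x_at and at least 0.12 in 1421924_at. Hk3 had 0.02 after LPS in its brightest probe set and -0.37 in 1435490_at. The summed signal of eosinophil, basophil and mast cell markers was lower on both knockout arrays, as given above, and its part in these small differences was not tested.

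**Figure D4:**
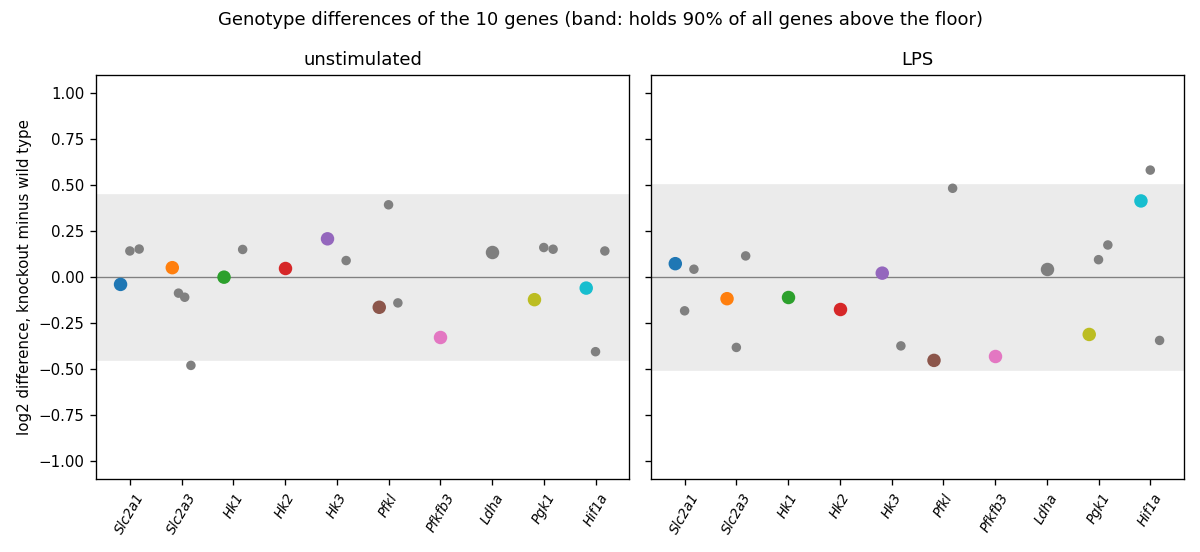
Log2 difference, knockout minus wild type (vertical axis), of the probe sets of the 10 genes, unstimulated (left) and after LPS (right); large points are the probe set that represents the gene, small grey points its other measured probe sets, signals under the floor were set to it, and the grey band holds 90% of all genes above the floor. All 10 large points lie inside the band in both panels.

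No member, and no probe set of one, was called in the difference of the LPS responses, knockout minus wild type, where 2.10% of 9865 genes and 2.80% of probe sets were; the widest values were 0.47 for Hif1a and -0.29 for Pfkl. Of the 62 pathway genes none was called between genotypes at either time or in this difference.

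The genes most like Slc2a3, the member with the widest range over the 4 arrays (0.85), were named by the distance between log2 values centred on each gene's mean. Among 8155 other genes above the floor on all 4 arrays, the nearest were Mast3 (distance 0.037), Pole3 (0.047) and Ppp1r3b (0.048), beside a median distance of 0.83. With 4 arrays such likeness says little more than that these signals were lower on both LPS arrays by a similar amount: Mast3 had 10.24, 10.28, 9.60 and 9.43 in unstimulated wild-type, unstimulated knockout, LPS wild-type and LPS knockout cells.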

How the data were processed

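Each deposited table holds a log2 signal for every probe set of its array, and the submitters' processing notes name MAS5 as the algorithm. The sources used here do not give its version or target. After unlogging, the mean without the outer 2% on either side was 500.003 or 500.004 on all arrays, so that a change common to most transcripts is removed. From 37.8% to 41.5% of 45101 probe sets lay above the floor, and from 298 to 428 were listed at 0. Gene symbols came from a table of the platform's annotation; probe sets with several symbols (932), none (9160) and 64 controls took no part in gene results.

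Differences were taken in Python 3.11.15 with pandas 2.3.3 after setting signals under the 60th percentile (log2 6.80) to it; genes over it on no array of a comparison were not measured there. With 1 array per group no p-value was computed. The calling code was tested on simulated data. Alternatives were floors at the 50th and 75th percentile or none, quantile, median and poly-A spike-in (24 probe sets) scaling, the mean over probe sets, no _s_at or _x_at probe sets, and a 1.5-fold call. The mean over probe sets was taken before the floor was set, so signals under the floor entered it as deposited. Members, lists and rules were chosen with earlier results of these data known. Named genes were all members and the pathway genes called in a comparison, otherwise at most 3 per list by size of difference. Slc16a3, Pdha1, Slc2a9, Gapdh, Vegfa, Pygl and Pfkp were added after their values were seen. Of the listed symbols Gpi1, Eno1 and G6pdx, among others, are not analysed here.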

Additional observations from a re-analysis of the deposited data

Results flagged for a closer look

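In 3 members the array pairs of the genotypes moved in opposite directions after LPS. The knockout minus wild-type difference of the LPS responses was 0.47 for Hif1a (-0.27 in wild-type, 0.20 in knockout cells), -0.29 for Pfkl (0.09 and -0.20) and -0.10 for Pfkfb3 (0.05 and -0.05). Each rests on 1 array per group, and the differences were not tested. Signs were opposite in 3 of 10 members, beside 17.4% of all genes measured in both genotypes. For Hif1a, 9.77% of 9865 measured genes had a difference of responses at least as high. Other Hif1a probe sets had 0.99 (1416035_at, from -0.81 and 0.18) and -0.49 (1448183_a_at). On the poly-A scale all 3 members were lower after LPS in both genotypes in their brightest probe set. Under quantile normalization Pfkl (0.38 and 0.03) and Pfkfb3 (0.11 and 0.02) were positive in both, as Pfkfb3 was under median scaling (0.11 and 0.03). The Hif1a value was 0.12 in the mean over its probe sets and between 0.43 and 0.50 under the other scalings. In the mean over probe sets, taken before the floor was set, all 3 members were lower after LPS in both genotypes. That mean took in 1431981_at of Hif1a and 1456676_a_at of Pfkfb3, which were under the floor on every array.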

How the results depend on the processing

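No called difference changed sign, and no genotype count of members changed, under the alternatives run. Slc2a3 alone took the count of members lower after LPS from 0 to 1 in both genotypes in the mean over probe sets, without _s_at and _x_at probe sets, and from 1.5-fold, and in knockout cells under quantile normalization. On the poly-A scale 1 member was lower in wild-type and 3 in knockout cells, with 5 and 6 probe sets lower. The medians were -0.69 and -0.77, beside -0.54 and -0.61 over all genes. Shares of all genes and probe sets called on that scale are not given here. Quantile normalization gave a wild-type median of -0.34; the cause was not tested. From 1.5-fold, 1 member and 1 probe set were higher in wild-type cells, 5 of 23 probe sets were lower in each genotype, and 1 probe set was higher in the difference of responses. Of all probe sets, 4039 of 16954 in wild-type and 3554 of 17090 in knockout cells were lower by 1.5-fold. In wild-type cells 2481 of 16954 were higher, and 1556 of 17761 were higher in the difference of responses. Of 59 pathway genes 2 were higher and 3 lower in knockout than wild-type cells after LPS, where 409 and 299 of all 9262 genes were. Of 62 pathway genes 2 were higher and 1 lower in the difference of responses, where 632 and 517 of all 9865 genes were. From 2-fold these pathway counts were 0. With the floor at the 75th percentile 0 probe sets were lower in wild-type and 1 in knockout cells, fewer signals being measured. With no floor 1 probe set was lower in knockout than wild-type cells after LPS, Hif1a 1431981_at, and 1 was higher in the difference of responses, Slc2a3 1427770_a_at. Both rest on signals under the floor used elsewhere. Under median scaling another probe set was higher in that difference, Hif1a 1416035_at (1.01). Shares of all probe sets called in these settings are not given here. Differences of single genes moved by more than 0.16, the median absolute genotype difference of unstimulated cells, in 34 of 64 cases on the poly-A scale, 24 of 62 in the mean over probe sets, 16 of 64 under quantile normalization, 12 of 64 without _s_at and _x_at probe sets and 0 under median scaling. Probe-set counts and pathway genes were added to the alternatives after the data were seen. No paired analysis was possible because each group has 1 array. Dim probe sets near the floor set the limit for the larger Slc2a3 differences.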

Other observations

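The pentose phosphate pathway, which supplies NADPH to the neutrophil oxidase, had 0 of 6 measured genes called after LPS in either genotype (medians 0.12 and -0.11). Of all measured genes, 17.0% in wild-type and 14.6% in knockout cells were called. Pgd, a dehydrogenase that yields NADPH, had 14.54 and 14.63 on the unstimulated wild-type and knockout arrays and 15.03 and 15.12 after LPS, differences of 0.50 and 0.49 that were below 0 on the poly-A scale. Taldo1, transaldolase, had differences of 0.54 and 0.30, also below 0 on that scale. Rpe, which interconverts pentose phosphates, had -0.97 and -0.36 in its brightest probe set and -1.73 and -1.26 in the next.

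Glycogen enzymes, which neutrophils use to store and release glucose, had 0 of 8 called (medians 0.05 and -0.00), beside the same 17.0% and 14.6% of all genes. Pygl, the phosphorylase of liver and leukocytes, lay between 14.53 and 14.77 on all 4 arrays, and Gbe1, the branching enzyme, between 9.69 and 10.07. The phosphoglucomutase Pgm1, which links glycogen to glycolysis, lay between 8.22 and 8.78, and Pgm2 had LPS differences of -0.13 and -0.51.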
